A study of Mus musculus with 12 samples.

Results

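A set of 8 genes of fat oxidation and fasting metabolism were followed in the kidneys of mice given SK-124 or vehicle. The members were *Ppara*, *Angptl4*, *Pdk4*, *Cpt1a*, *Acadm*, *Ehhadh*, *Plin2* and *Vnn1*, taken by name from 55401 gene identifiers in each table, of which 14159 passed a filter on low counts and were tested. All 8 passed the filter. SK-124 is a small-molecule inhibitor of the salt-inducible kinases SIK2 and SIK3. Male C57BL6 mice, 8 weeks old, received 1 intraperitoneal injection of SK-124 (40 mg/kg) or of the carrier alone (15% 2-hydroxypropyl-beta-cyclodextrin), and RNA of the whole kidney was sequenced from 6 mice in each group. Neither the feeding state of these mice nor the interval between injection and RNA collection for these libraries is given in the sources used here.

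PPAR-alpha, the product of *Ppara*, is a nuclear receptor that binds fatty acids and pairs with a retinoid X receptor on DNA. In fasting it raises the transcription of genes that bring fatty acids into cells, carry them into mitochondria and peroxisomes, and break them down there. The proximal tubule of the kidney draws much of its energy from fatty acids and carries a high level of this receptor. Several of its targets, *Pdk4* and *Angptl4* among them, also answer to other nuclear receptors, to glucocorticoids and to FoxO factors.

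The libraries held between 19244227 and 19771802 expected counts each. In SK-124-treated mice 1 to 3, the 10 most abundant genes took 44.4% to 46.8% of the counts. The range was 38.6% to 40.2% in SK-124-treated mice 4 to 6 and 39.9% to 43.2% in the vehicle group. The 8 genes and the gene lists are thus also given for each set of 3, each against the same vehicle-treated mice. The 8 proximal tubule markers summed to between 23805 and 33579 CPM (counts scaled to a common library size) in vehicle-treated mice and between 25620 and 33889 CPM in SK-124-treated mice, and 0 of 8 passed the test. Adipocyte markers were low in both groups (summed, 25.0 to 59.1 CPM with vehicle and 26.0 to 49.2 CPM with SK-124), and the defining gene *Adipoq* did not exceed 1.85 CPM in any mouse. In markers of other kidney cells, the calls included *Cldn16* of the thick ascending limb and *Aqp2* and *Slc26a4* of the collecting duct, all higher, and *Kdr* of endothelium and *Cd68* of macrophages, both lower, with 0 calls among distal convoluted tubule and red blood cell genes and adrenal genes summing to at most 0.877 CPM. CPM values here are scaled by the trimmed mean of M values (TMM). In bulk RNA, fewer cells of a type and less RNA per cell cannot be told apart.

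Among the 8 genes, 3 were higher with SK-124 at a false discovery rate (FDR) under 0.05 (*Angptl4*, *Pdk4* and *Cpt1a*), and 0 were lower. At an unadjusted p under 0.05 *Acadm* was also higher, and 0 were lower by that measure or by DESeq2. Among all genes tested, 10.8% were called higher, 13.5% lower and 24.4% in either direction by the same edgeR quasi-likelihood test. For these 3 genes, every SK-124-treated mouse was above every vehicle-treated mouse, a separation that 6.32% of all tested genes showed upward, 6.65% downward and 13.0% in either direction. *Angptl4* and *Pdk4* rose over 5-fold, whereas *Cpt1a* rose 1.43-fold. The other 5 genes overlapped between the groups. The median log2 fold change was 0.25 over the 8 genes and -0.01 over all genes tested. By DESeq2 *Acadm* was also called, which made 4 of the 8 higher, beside 9.55% of all genes higher and 9.74% lower by DESeq2.

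**Figure D1:**
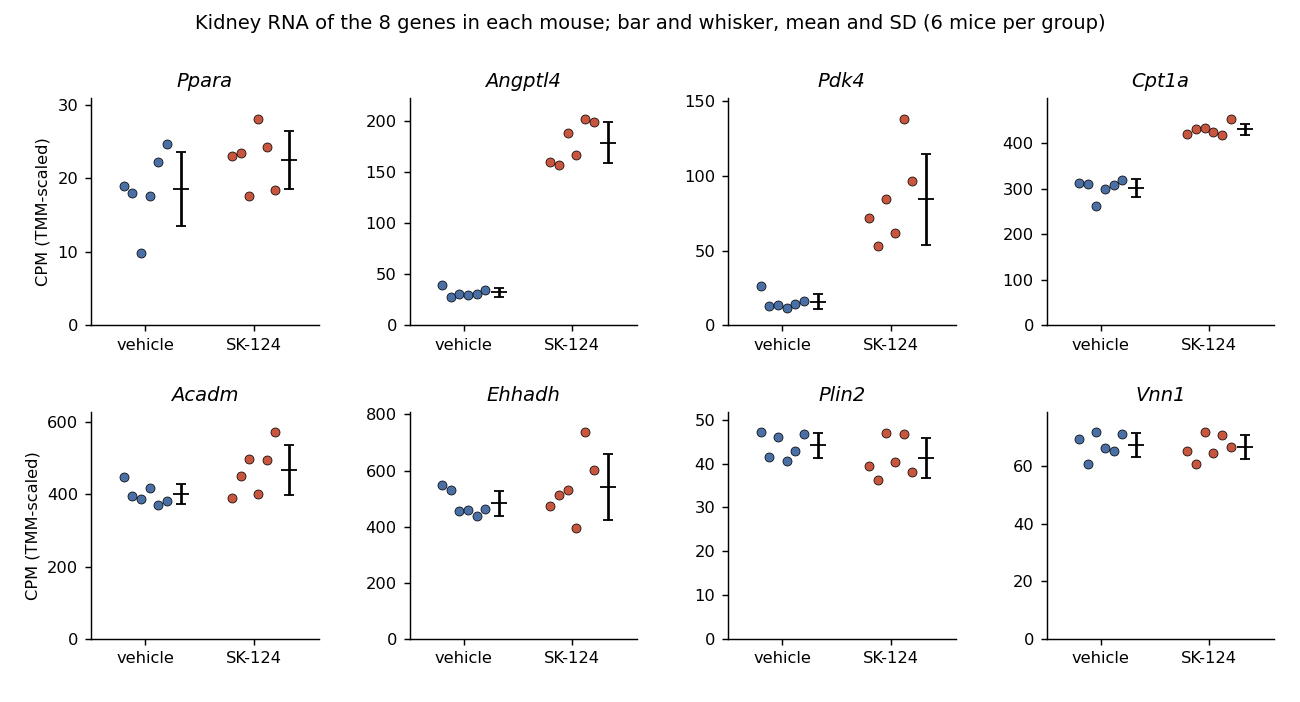
Level of each of the 8 genes in every mouse, as TMM-scaled CPM on a linear axis that starts at 0, for 6 vehicle-treated and 6 SK-124-treated mice. Bars and whiskers beside the points are mean and SD. *Angptl4*, *Pdk4* and *Cpt1a* separate the groups with no overlap, and the other 5 genes do not.

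**Figure D2:**
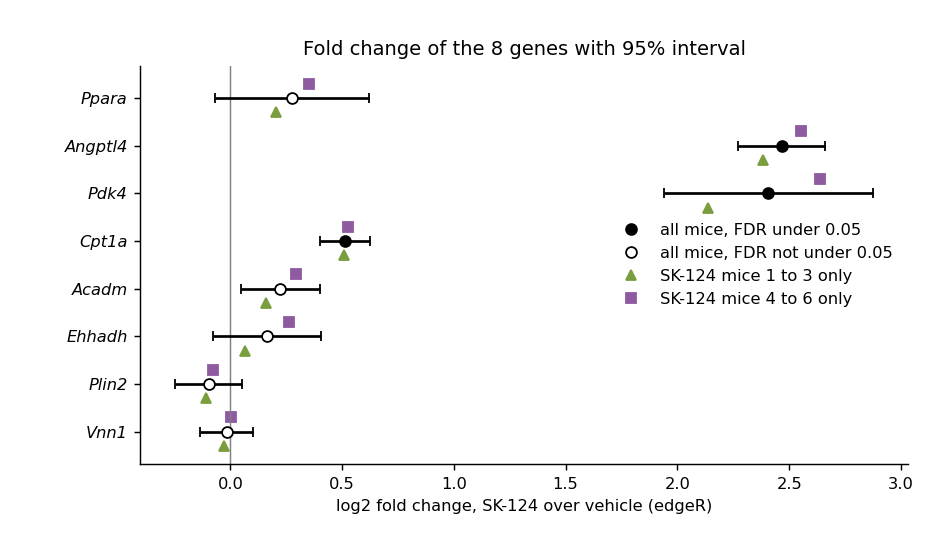
Log2 fold change of each gene with SK-124 over vehicle (circles, with 95% confidence intervals from edgeR; filled circles have an FDR under 0.05). Triangles are estimates from the first set of SK-124-treated mice (1 to 3) and squares from the second (4 to 6). For *Angptl4*, *Pdk4* and *Cpt1a* both sets of 3 mice give positive estimates that passed the test. Both sets were compared with the same vehicle-treated mice, so the estimates are not independent.

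Upstream sequences were read for the 6 genes that matched an entry in RefSeq's table of start sites (GRCm38.p6), and 250 bases before each start were searched on both strands. *Angptl4* and *Vnn1* had no entry. The search used the PPAR direct repeat (AGGTCA and again AGGTCA, with any 1 base between, and up to 3 mismatches over 13 bases), its single hexamer AGGTCA, the short CREB site TGACG, the full CREB site (TGACG followed by TCA, which contains the short one), and the FoxO site TGTTTAC. Here 4 stretches are printed to set the windows of both risen genes, *Pdk4* and *Cpt1a*, beside the windows that held a direct repeat, those of *Acadm* and *Plin2*. Bases inside annotated exons of the gene were left off, and the RefSeq start of *Cpt1a* lies inside the GENCODE gene. The strand is that of the gene and capitals mark the repeat and hexamer.
Pdk4, chr6:5496310-5496528, minus strand: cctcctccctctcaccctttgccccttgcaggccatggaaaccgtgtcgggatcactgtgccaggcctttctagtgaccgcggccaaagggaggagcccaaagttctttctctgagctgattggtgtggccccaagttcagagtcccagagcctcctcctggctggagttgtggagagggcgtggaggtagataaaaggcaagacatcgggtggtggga
Cpt1a, chr19:3323051-3323284, plus strand: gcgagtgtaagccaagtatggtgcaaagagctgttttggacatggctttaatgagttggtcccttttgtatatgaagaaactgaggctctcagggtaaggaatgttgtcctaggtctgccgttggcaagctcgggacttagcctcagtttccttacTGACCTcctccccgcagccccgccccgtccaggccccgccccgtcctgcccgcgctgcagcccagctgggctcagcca
Acadm, chr3:153944644-153944893, minus strand: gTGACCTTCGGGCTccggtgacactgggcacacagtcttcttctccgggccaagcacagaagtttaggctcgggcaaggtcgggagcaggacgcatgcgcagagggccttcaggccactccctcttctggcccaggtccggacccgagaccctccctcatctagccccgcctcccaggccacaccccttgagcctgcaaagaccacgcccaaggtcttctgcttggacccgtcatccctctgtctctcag
Plin2, chr4:86670061-86670309, minus strand: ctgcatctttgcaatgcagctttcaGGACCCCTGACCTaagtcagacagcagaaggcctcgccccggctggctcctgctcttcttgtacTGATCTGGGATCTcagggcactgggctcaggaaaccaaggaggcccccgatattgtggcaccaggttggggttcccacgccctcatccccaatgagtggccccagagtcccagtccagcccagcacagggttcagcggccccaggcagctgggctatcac

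The direct repeat was matched in 2 of the 6 windows, those of *Acadm* and *Plin2*, and in 21.3% of all 32851 windows of the same length. With up to 2 mismatches it was matched in 1 member window, that of *Plin2*, and in 3.24% of all windows. The *Plin2* match with 2 mismatches, GGACCCCTGACCT as written on the gene's strand, lay 225 to 213 bases before the start, and the *Acadm* match with 3 mismatches lay 249 to 237 bases before. The exact hexamer was in the windows of *Acadm*, *Plin2* and *Cpt1a*, and in 14.0% of all windows. In *Acadm* and *Plin2* it is part of the direct repeat. The 5-base CREB site was in the windows of *Acadm*, *Ppara* and *Ehhadh*, against 17.8% of all windows, and neither the 8-base CREB site nor the FoxO site was in any of the 6 (1.55% and 3.17% of all windows). The glucocorticoid receptor site, with up to 3 mismatches, was in the *Acadm* window and in 12.3% of all windows. These letters say nothing of binding, and enhancers outside the windows were not searched.

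*Ppara* itself (ENSMUSG00000022383.13, chr15:85734983-85802819, plus strand) did not pass the test. Its CPM ran from 9.81 to 24.7 with a median of 18.5 in vehicle-treated mice, and from 17.6 to 28.1 with a median of 23.2 in SK-124-treated mice. The groups overlapped in all but 1 SK-124-treated mouse. The log2 fold change was 0.28 (standard error, SE, 0.16, 95% interval -0.07 to 0.62, FDR = 0.247 by edgeR). Vehicle-treated mouse 3 had the lowest value, and without it the estimate was 0.15 (FDR = 0.378, edgeR). Per length, the group means were the same to 2 digits, at 6.83 ± 2.18 TPM (the measure corrected for transcript length) with vehicle and 6.83 ± 1.86 TPM with SK-124 (SD, n = 6 each).

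Among 12 other receptors and coregulators around PPAR-alpha, 4 were higher and 1 lower, beside 10.8% and 13.5% of all genes. *Lpin1*, a phosphatidate phosphatase that also acts as a coactivator with PGC-1-alpha and PPAR-alpha, was at 53.3 ± 5.54 CPM with vehicle and 128 ± 18.0 CPM with SK-124 (SD, n = 6 each). This was a change of 1.27 on the log2 scale (SE 0.09, FDR = 1.96e-08, edgeR). *Ppard*, which encodes the related receptor PPAR-delta, rose from 78.2 ± 13.0 to 124 ± 13.8 CPM (log2 fold change 0.66, FDR = 0.00017, edgeR), and the deacetylase gene *Sirt1* was the remaining higher gene.

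The coactivator genes *Ppargc1a* and *Ppargc1b* moved in opposite directions. On the log2 scale *Ppargc1a* changed by 0.66 (SE 0.09, FDR = 2.08e-05) and *Ppargc1b* by -0.84 (SE 0.09, FDR = 1.82e-06), both by edgeR. Every SK-124-treated mouse lay outside the vehicle range for both. *Rxra*, which encodes a retinoid X receptor, had a log2 fold change of 0.12 (FDR = 0.152, edgeR), and *Pparg* was near the floor at 1.33 ± 0.32 CPM with vehicle and 1.42 ± 0.37 CPM with SK-124 (SD, n = 6 each). The estimates for *Rxra* and *Pparg* turned to just under 0 with scaling by library totals only.

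*Angptl4* (ENSMUSG00000002289.16, chr17:33773750-33781830, minus strand) encodes a secreted inhibitor of lipoprotein lipase. Its CPM lay between 28.0 and 39.9 with a median of 30.8 in vehicle-treated mice, and between 157 and 202 with a median of 177 in SK-124-treated mice. The lowest SK-124-treated mouse was thus well above the highest vehicle-treated mouse. In expected counts the group means were 660 ± 96.5 and 3359 ± 567 (SD, n = 6 each). The fold change was 5.52 (95% interval 4.83 to 6.32), or 2.47 on the log2 scale (SE 0.09, FDR = 6.25e-12, edgeR). With SK-124-treated mice 1 to 3 only it was 2.38, and with mice 4 to 6 only 2.55 (FDR = 2.39e-09 and 1.48e-09, edgeR).

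In the rest of the lipoprotein lipase axis, 1 of 6 tested genes was higher and 1 lower, near the shares of all genes (10.8% and 13.5%). *Gpihbp1*, the endothelial protein that carries lipoprotein lipase to the capillary wall, rose from 4.87 ± 0.62 to 8.98 ± 2.65 CPM (SD, n = 6 each; log2 fold change 0.89, FDR = 0.000653, edgeR), with all 6 SK-124-treated mice above the vehicle range. *Vldlr*, a receptor for triglyceride-rich particles, had a log2 fold change of -0.23 (FDR = 0.014, edgeR). The lipase gene *Lpl* itself was at 659 ± 90.6 CPM with vehicle and 744 ± 180 CPM with SK-124 (SD, n = 6 each; FDR = 0.394, edgeR). The 5 endothelial markers gave 0 higher and 1 lower (*Kdr*), with summed levels of 262 to 349 CPM with vehicle and 212 to 330 CPM with SK-124. Their part in the *Gpihbp1* result was not tested.

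*Pdk4* (ENSMUSG00000019577.6, chr6:5483351-5496309, minus strand) encodes a kinase that phosphorylates and shuts down pyruvate dehydrogenase, which spares glucose carbon when fat is burned. Vehicle-treated mice ran from 11.7 to 26.1 CPM with a median of 14.1, and SK-124-treated mice from 53.5 to 138 CPM with a median of 78.2. The groups did not overlap, although the spread was wider than for *Angptl4*. Mean expected counts were 324 ± 107 and 1596 ± 659 (SD, n = 6 each). The fold change was 5.30 (95% interval 3.83 to 7.33), or 2.41 on the log2 scale (SE 0.22, FDR = 4.15e-07, edgeR). SK-124-treated mouse 5 had the highest value, and without it the log2 estimate was 2.21 (FDR = 3.30e-07, edgeR).

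The other pyruvate dehydrogenase kinases changed far less. In TPM, which is per length, *Pdk2* was the most abundant of the 4 kinase genes in both groups, at 145 ± 13.1 with vehicle and 160 ± 21.3 with SK-124 (SD, n = 6 each). *Pdk4* stood at 7.09 ± 3.18 TPM with vehicle, below *Pdk3* at 18.1 ± 1.40 TPM, and at 30.7 ± 14.2 TPM with SK-124, where *Pdk3* was at 18.2 ± 2.80 TPM. By the count test *Pdk2* was higher (log2 fold change 0.32, FDR = 0.00025), *Pdk1* lower (-0.21, FDR = 0.00754) and *Pdk3* slightly higher (0.16, FDR = 0.0485, edgeR). The *Pdk3* call was lost without any 1 of 8 of the mice (vehicle-treated 1, 3, 4, 5 or 6, or SK-124-treated 2, 5 or 6), where the FDR reached 0.122 by edgeR.

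*Pdp2*, a phosphatase that reactivates the dehydrogenase, fell by 0.44 on the log2 scale (SE 0.08, FDR = 0.000724, edgeR). In all, 3 of 10 other genes of this switch were higher (*Pdk2*, *Pdk3* and the subunit gene *Pdha1*) and 2 lower (*Pdp2* and *Pdk1*), beside 10.8% and 13.5% of all genes. All 6 SK-124-treated mice were below the vehicle range for both of the lower genes.

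*Cpt1a* (ENSMUSG00000024900.5, chr19:3322334-3385733, plus strand) encodes the carnitine palmitoyltransferase of the outer mitochondrial membrane, the step that controls the entry of long-chain fatty acids into mitochondria. Its values were tight, from 261 to 319 CPM with a median of 309 in vehicle-treated mice and from 419 to 453 CPM with a median of 428 in SK-124-treated mice. No SK-124-treated mouse came within the vehicle range. Mean expected counts were 6142 ± 567 and 8042 ± 686 (SD, n = 6 each). The fold change was 1.43 (95% interval 1.32 to 1.54), or 0.51 on the log2 scale (SE 0.05, FDR = 1.89e-06, edgeR). It was 0.51 with SK-124-treated mice 1 to 3 only and 0.53 with mice 4 to 6 only.

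For *Angptl4*, *Pdk4* and *Cpt1a*, an exact two-sided permutation test on log2(CPM + 0.5) gave p = 0.00216 each, the smallest value that 6 against 6 mice allow. Such tests were run for the 8 genes on 3 scales, 24 in all.

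The rest of the carnitine shuttle did not share the size of the *Cpt1a* change. *Cpt2*, the partner enzyme of the inner membrane, was the 1 called gene among 9 tested, at 104 ± 5.96 CPM with vehicle and 121 ± 10.8 CPM with SK-124 (SD, n = 6 each; log2 fold change 0.22, FDR = 0.0152, edgeR). The share of all genes called higher was 10.8%. *Cpt2* was not called with SK-124-treated mice 1 to 3 only (FDR = 0.104) and was with mice 4 to 6 only (FDR = 0.0271, edgeR). The carrier gene *Slc25a20* had a log2 fold change of 0.18 (FDR = 0.114) and the muscle form *Cpt1b* one of 0.08 (FDR = 0.584, edgeR), which turned to -0.03 with library totals only.

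Among 14 other genes of fatty acid uptake, binding and activation, 4 were higher and 0 lower, beside 10.8% and 13.5% of all genes. But with library totals only 1 was higher and 2 lower, beside 5.49% and 21.6% of all genes, and with limma on either TPM scale 0 were called. The 4 were the acyl-CoA synthetase genes *Acsl4* (log2 fold change 0.39, FDR = 5.18e-05), *Acsm3* (0.26, FDR = 0.029) and *Acsm5* (0.24, FDR = 0.00182, all by edgeR), and the transporter gene *Slc27a2*. *Acsm3* lost its call without vehicle-treated mouse 4, 5 or 6 or SK-124-treated mouse 3 or 6, with an FDR of up to 0.0738 (edgeR). The uptake receptor gene *Cd36* was at 181 ± 17.3 CPM with vehicle and 204 ± 17.0 CPM with SK-124 (SD, n = 6 each), with an FDR of 0.0832 by edgeR. *Fabp1* was not tested, with 8 expected counts at the most.

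*Acadm* (ENSMUSG00000062908.12, chr3:153922357-153944632, minus strand) encodes the medium-chain acyl-CoA dehydrogenase of mitochondrial beta-oxidation. Its CPM ran from 371 to 447 with a median of 392 in vehicle-treated mice, and from 390 to 572 with a median of 472 in SK-124-treated mice. In the SK-124 group 4 mice were above the vehicle range and the other two were inside it. The log2 fold change was 0.22 (SE 0.08, 95% interval 0.05 to 0.40), and the FDR of 0.0626 by edgeR missed the threshold. An exact permutation test of this gene alone gave p = 0.0433 on log2(CPM + 0.5) and p = 0.613 on log2(TPM + 1). Leaving out 1 of 3 mice brought the FDR under the threshold (edgeR): without vehicle-treated mouse 1 it was 0.0461, without SK-124-treated mouse 1 it was 0.0224, and without SK-124-treated mouse 4 it was 0.0308. Without any other mouse *Acadm* was not called, and the FDR rose to 0.159 without SK-124-treated mouse 6 (edgeR). It was 0.241 with SK-124-treated mice 1 to 3 only and 0.0501 with mice 4 to 6 only (edgeR). With limma on log2(TPM + 1) it was 0.713.

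All 16 other genes of mitochondrial beta-oxidation had positive estimates, with a median log2 fold change of 0.13. Only 4 passed the test, beside 10.8% of all genes called higher. *Eci2*, an enoyl-CoA isomerase gene, had the largest at 0.42 (SE 0.08, FDR = 0.000733, edgeR). *Hadhb*, a subunit of the trifunctional protein, was at 0.19 (FDR = 0.0113), *Acadl*, the long-chain dehydrogenase, at 0.19 (FDR = 0.0271, both edgeR), and *Etfdh*, which passes electrons on to ubiquinone, was the remaining call. *Acadl* was lost without vehicle-treated mouse 2, 4, 5 or 6 or SK-124-treated mouse 3, 5 or 6 (FDR up to 0.0657, edgeR). With library totals only, which moved the median of all genes to -0.12, 9 of the 16 estimates were positive. In that fit 1 was called higher, beside 5.49% of all genes. With limma on log2(TPM + 1), 7 were positive and 0 called. With edgeR on SK-124-treated mice 1 to 3 only 1 was called higher, and on mice 4 to 6 only 6 were, beside 7.34% and 8.06% of all genes.

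*Ehhadh* (ENSMUSG00000022853.7, chr16:21761287-21787807, minus strand) encodes the bifunctional enzyme of peroxisomal beta-oxidation and overlaps the small gene *Gm24898* on the opposite strand. Vehicle-treated mice were between 439 and 550 CPM with a median of 461. SK-124-treated mice were between 394 and 736 CPM with a median of 520, so that the highest and the lowest of all 12 values were both in the SK-124 group. The log2 fold change was 0.16 (SE 0.11, 95% interval -0.08 to 0.40, FDR = 0.33, edgeR), and it was 0.06 without SK-124-treated mouse 5, which held the highest value. On log2(TPM + 1) the estimate was -0.01.

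Around *Ehhadh*, 4 of 15 other peroxisomal genes were higher and 0 lower, beside 10.8% and 13.5% of all genes. By DESeq2, 5 were higher and 1 lower, beside 9.55% and 9.74% of all genes. With library totals only 4 were higher and 2 lower, beside 5.49% and 21.6% of all genes. *Pex11a*, a peroxisome proliferation factor, had a log2 fold change of 0.54 (FDR = 6.64e-05) and *Crot*, the carnitine octanoyltransferase, one of 0.48 (FDR = 4.11e-05, both edgeR). For both, all 6 SK-124-treated mice were above the vehicle range, and *Acox3* was also called.

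The microsomal omega-hydroxylase genes, classic PPAR-alpha targets in liver, were variable in the SK-124 group. *Cyp4a14* ran from 24.9 to 47.3 CPM with a median of 36.9 in vehicle-treated mice and from 28.3 to 203 CPM with a median of 54.7 in SK-124-treated mice. In the SK-124 group 3 of 6 mice lay inside the vehicle range. The estimate was 1.07 on the log2 scale (SE 0.36, FDR = 0.04, edgeR), but 0.53 (FDR = 0.14) without SK-124-treated mouse 5 and 0.37 (FDR = 0.185) with mice 1 to 3 only. The call was also lost without SK-124-treated mouse 6 or any 1 of the 6 vehicle-treated mice, and by DESeq2. *Cyp4a10* was at 328 ± 38.1 CPM with vehicle and 416 ± 123 CPM with SK-124 (SD, n = 6 each; FDR = 0.0979, edgeR). Of this list 1 of 6 genes was called, beside 24.4% of all genes in either direction.

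Ketone body genes gave 0 calls in either direction among 6 tested, by edgeR or DESeq2 and also at an unadjusted p under 0.05, with a median log2 fold change of 0.12. With SK-124-treated mice 4 to 6 only 2 were higher, and with mice 1 to 3 only 0 were, beside 8.06% and 7.34% of all genes. *Fgf21*, a fasting hormone gene, was at 0 counts in all 12 mice.

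**Figure D3:**
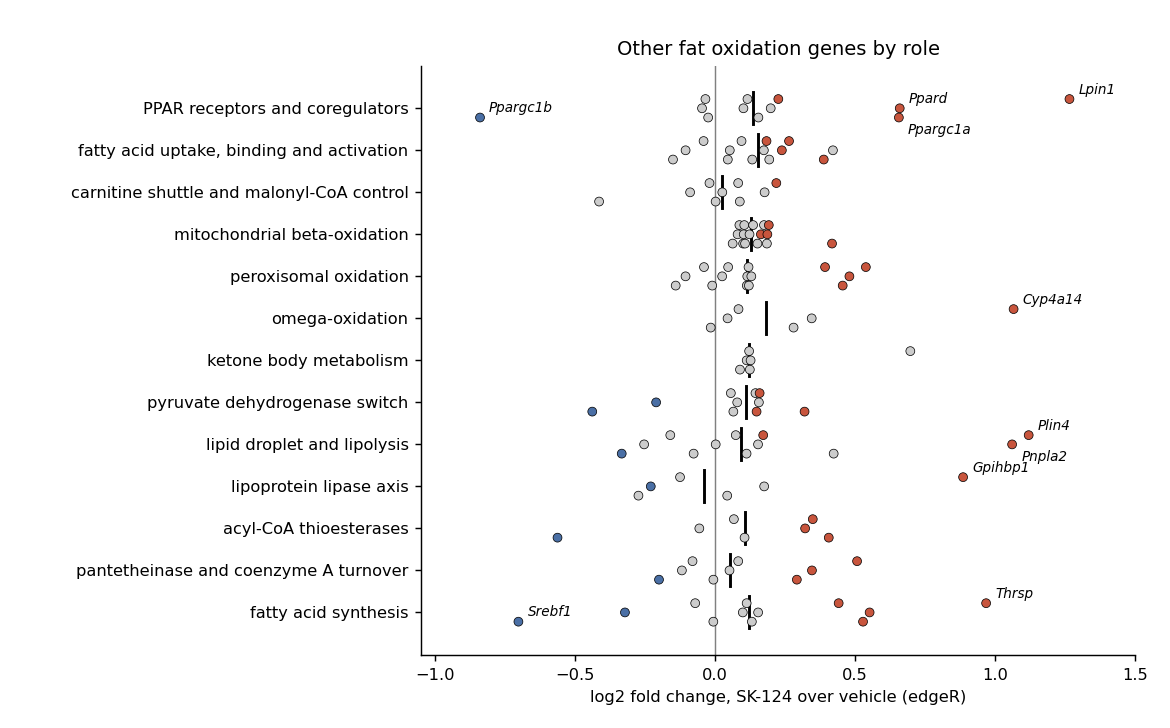
Log2 fold change with SK-124 over vehicle for the other tested genes of fat oxidation and neighbouring pathways, 1 point per gene, arranged by role (edgeR on all genes). Red points were called higher and blue points lower at an FDR under 0.05, grey points were not called, and the black bar is the median of the list. *Lpin1*, *Plin4*, *Cyp4a14* and *Pnpla2* lie above 1, and *Ppargc1b* has the lowest value at -0.84.

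*Plin2* (ENSMUSG00000028494.12, chr4:86648386-86670060, minus strand) encodes perilipin 2, the coat protein of lipid droplets in most cells outside fat. Its CPM ran from 40.6 to 47.2 with a median of 44.5 in vehicle-treated mice and from 36.3 to 46.9 with a median of 39.9 in SK-124-treated mice. In the SK-124 group 4 mice were below the vehicle range and the other two inside it. The log2 fold change was -0.10 (SE 0.07, 95% interval -0.25 to 0.05, FDR = 0.36, edgeR), an interval that holds no rise above 1.04-fold.

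Of the lipolysis genes beside it, *Pnpla2*, the adipose triglyceride lipase that opens the breakdown of droplet triglyceride, was at 102 ± 6.91 CPM with vehicle and 212 ± 18.2 CPM with SK-124 (SD, n = 6 each), with all 6 SK-124-treated mice above the vehicle range. The change was 1.06 on the log2 scale (SE 0.06, FDR = 2.06e-09, edgeR). *Abhd5*, the activator of that lipase, had one of 0.17 (FDR = 0.0277), which was lost without vehicle-treated mouse 4 or 5 or SK-124-treated mouse 1, 3 or 6 (FDR up to 0.0676, edgeR). The lipase genes *Lipe* (-0.16, FDR = 0.249) and *Mgll* (0.15, FDR = 0.169) and the inhibitor gene *G0s2* (-0.25, FDR = 0.288, all edgeR) were not called.

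Of the perilipins, *Plin4* was higher (log2 fold change 1.12, FDR = 0.0128) and *Plin3* lower (-0.33, FDR = 0.000178, both edgeR). *Plin4* was scarce, at 1.23 ± 0.70 and 2.67 ± 0.91 CPM (SD, n = 6 each), and did not pass with SK-124-treated mice 1 to 3 only (FDR = 0.192, edgeR). Adipocyte markers varied at a like level. *Plin1* ran from 0 to 2.18 CPM with vehicle and 0 to 1.12 CPM with SK-124, and *Cidec* from 0.05 to 2.84 and 0.06 to 1.23 CPM. The part of fat cells in the results of *Plin4* and the likewise scarce *Thrsp* was not tested. *Plin5* (FDR = 0.112) and the lipolysis inhibitor gene *Hilpda* (FDR = 0.867, edgeR) were not called. In all, 3 genes of this list were higher and 1 lower among 12 tested, beside 10.8% and 13.5% of all genes.

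*Vnn1* (ENSMUSG00000037440.8, chr10:23894688-23905343, plus strand) encodes vanin 1, a membrane-bound pantetheinase that yields cysteamine and pantothenate, the precursor of coenzyme A. It ran from 60.6 to 71.7 CPM with a median of 67.8 in vehicle-treated mice and from 60.7 to 71.7 CPM with a median of 66.0 in SK-124-treated mice. The ranges of the groups nearly coincided. The log2 fold change was -0.02 (SE 0.06, FDR = 0.871, edgeR), and its 95% interval of -0.14 to 0.10 holds changes of up to about 1.07-fold upward and 0.91-fold downward.

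In coenzyme A turnover, 3 of 9 other tested genes were higher and 1 lower, beside 10.8% and 13.5% of all genes. *Nudt19*, a peroxisomal coenzyme A hydrolase abundant in kidney, rose from 409 ± 46.5 to 582 ± 96.1 CPM (SD, n = 6 each; log2 fold change 0.51, FDR = 0.00146, edgeR). The pantothenate kinase genes *Pank3* (0.35, FDR = 0.00301) and *Pank1* (0.29, FDR = 0.00724) were also higher. *Ppcdc*, a later step of the synthesis, was the lower gene (-0.20, FDR = 0.0364, all edgeR). It was not called by DESeq2, nor without vehicle-treated mouse 2, 3 or 4 or SK-124-treated mouse 1, 3, 4, 5 or 6 (FDR up to 0.0839, edgeR).

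The acyl-CoA thioesterase genes, several of which are near-identical neighbours, gave 3 higher and 1 lower among 7 tested, beside 10.8% and 13.5% of all genes. *Acot12* had a log2 fold change of 0.41 (FDR = 0.000202), *Acot1* 0.35 (FDR = 0.0132), *Acot2* 0.32 (FDR = 0.0112) and *Acot3* -0.56 (FDR = 0.00415, all edgeR). *Acot1* did not pass with SK-124-treated mice 1 to 3 only (FDR = 0.142) and *Acot3* did not pass with mice 4 to 6 only. Reads of *Acot1*, *Acot2* and *Acot3* may be shared between copies, so their values are uncertain.

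Genes of fatty acid synthesis, the opposite pathway, were mixed, with 4 higher and 2 lower among 12 tested, beside 10.8% and 13.5% of all genes. *Srebf1*, the transcription factor that drives the pathway with insulin, fell by 0.70 on the log2 scale (26.7 ± 3.10 to 16.4 ± 1.58 CPM, SD, n = 6 each; FDR = 8.61e-06, edgeR). *Acly* (0.55, FDR = 0.000171) and *Elovl6* (0.53, FDR = 4.41e-05) were higher, *Scd2* (-0.32, FDR = 0.00845) was lower, and the synthase gene *Fasn* was at 0.15 (FDR = 0.154, all edgeR). *Thrsp*, at 1.55 ± 0.86 and 3.05 ± 1.13 CPM (SD, n = 6 each), had a log2 fold change of 0.97 (FDR = 0.0312). It lost its call without vehicle-treated mouse 1, 2, 3 or 4 or SK-124-treated mouse 3, 4 or 6 (FDR up to 0.0795, edgeR), and *Gpam* was the remaining higher gene.

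Over all of these lists together, without the 8 genes, 35 of 134 tested genes were higher (26.1%) and 9 lower (6.72%), beside 10.8% and 13.5% over all genes. Their median log2 fold change was 0.11. With library totals only, the split was 19 higher and 14 lower, beside 5.49% and 21.6% of all genes. That change of scaling moves nearly all genes alike. The list's distance of 0.12 from the median of all genes, the same in both fits, is thus no check. With limma on log2(TPM + 1) the distance was 0.08, with 54 of 134 estimates positive and 97 above the median of all genes. With SK-124-treated mice 1 to 3 only, 23 were higher and 6 lower, beside 7.34% and 8.5% of all genes. With mice 4 to 6 only, the counts were 34 and 5, beside 8.06% and 8.67% of all genes. A list of 36 textbook PPAR-alpha targets other than the 8 genes had 12 higher and 1 lower (*Acot3*) among 32 tested and a median of 0.18. All 32 are among the 134 genes above, so these calls are part of the counts already given. With SK-124-treated mice 1 to 3 only, 5 of these 32 were higher, and with mice 4 to 6 only, 14 were, beside the same shares of all genes. With library totals only 4 were higher and 1 lower, beside 5.49% and 21.6% of all genes. With limma on either TPM scale the counts were 2 and 0, beside 3.53% and 15% on log2(TPM + 1).

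With each set of 3 SK-124-treated mice, the peroxisomal genes had 4 higher calls and 0 lower, and the receptor list 3 higher and 1 lower. Of all genes, 7.34% were higher and 8.5% lower with mice 1 to 3, and 8.06% and 8.67% with mice 4 to 6. The lipid droplet list had 2 higher and 1 lower of 12 in each set. The pyruvate dehydrogenase switch had 1 and 1 of 10, near the shares of all genes. Omega-oxidation had 0 higher with mice 1 to 3 and 2 with mice 4 to 6, and fatty acid uptake 3 and 4. Coenzyme A turnover had 3 and 2 higher, the thioesterases 2 and 3, fatty acid synthesis 3 in each and the lipase axis 1 in each. With limma on log2(TPM + 1), where 3.53% of all genes were higher, the higher calls left were 4 in the peroxisomal list and 3 in the receptor list. The droplet, lipase and synthesis lists kept 1 each.

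The levels of the 8 genes were set in order by TPM, which is per length. With vehicle, *Acadm* led at 335 ± 36.2 TPM, followed by *Ehhadh* at 160 ± 17.0 and *Cpt1a* at 69.8 ± 8.54 (SD, n = 6 each), with no overlap between neighbours. *Vnn1* (29.2 ± 2.64) and *Plin2* (28.5 ± 2.67) overlapped each other and lay above *Angptl4* at 14.1 ± 2.43. *Angptl4* overlapped *Pdk4* in range but was above it in all 6 mice, and *Pdk4* (7.09 ± 3.18) and *Ppara* (6.83 ± 2.18) overlapped.

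With SK-124 the top 3 kept their order and *Ppara* stayed last, but *Angptl4* and *Pdk4* moved to the fourth and the fifth place. *Angptl4* reached 71.5 ± 15.3 TPM, within the range of *Cpt1a* (89.8 ± 10.7) yet below it in all 6 mice, and *Pdk4* reached 30.7 ± 14.2 TPM (SD, n = 6 each). *Pdk4* overlapped *Vnn1* (26.5 ± 3.63) and exceeded it in 4 of 6 mice, and *Vnn1* exceeded *Plin2* (24.6 ± 4.24) in 5 of 6.

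Within groups, *Pdk4* and *Angptl4* varied together. Over 6 vehicle-treated mice Pearson's r was 0.94 and Spearman's rho 0.94 (exact permutation p = 0.00972 and 0.0167, adjusted p = 0.253 and 0.312), and over 6 SK-124-treated mice r was 0.90 and rho 0.94 with the same p-values by exact permutation. Without the pair of mice farthest from the median of *Pdk4*, r was 0.96 and 0.88. Of 56 such correlations between the 8 genes, 28 in each group, 8 had an unadjusted exact permutation p for r under 0.05 and 0 an adjusted one.

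After each group's mean was removed, *Angptl4* was also the gene, of all those tested, whose log2(CPM + 0.5) was most like that of *Pdk4* over the 12 mice (r = 0.91), and *Pdk4* the most like *Angptl4*. For *Acadm* the nearest gene was *Acsm3* (r = 0.95), for *Ehhadh* it was *Slc22a26* (r = 0.93), for *Plin2* *Ptcd2* (r = 0.92), and for *Vnn1* *C1qtnf9* (r = 0.94). *Cpt1a* was nearest to *Sh2d4b* (r = 0.97), and *Ppara* to *Tut7* (r = 0.96). These are descriptions over mice that share library depth and composition, taken from the largest of 14159 values each, and carry no test.

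**Figure D4:**
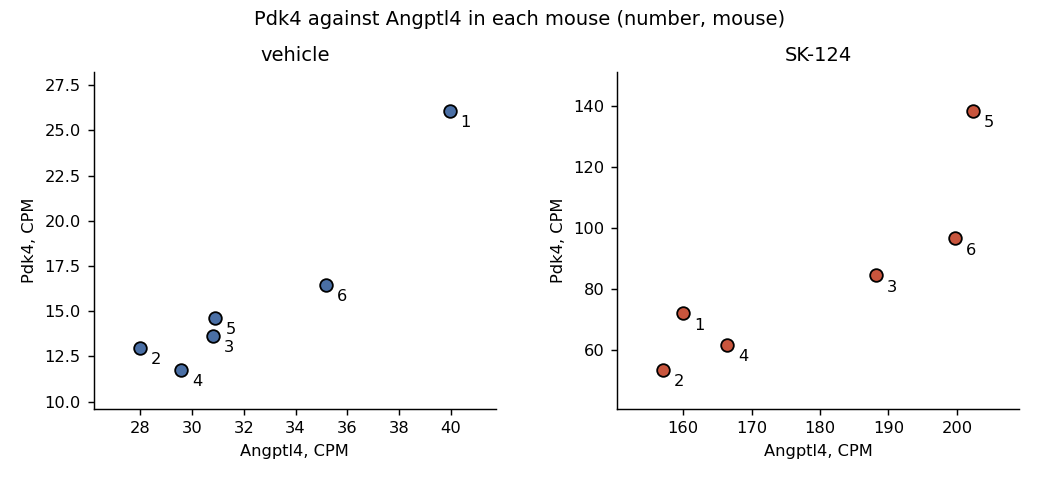
*Pdk4* against *Angptl4* in each mouse, both as TMM-scaled CPM, with vehicle-treated mice on the left and SK-124-treated mice on the right and axes that differ between the panels and do not start at 0. Numbers are mouse numbers. Vehicle-treated mouse 1 and SK-124-treated mouse 5 are highest for both genes in their groups.

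**Figure D5:**
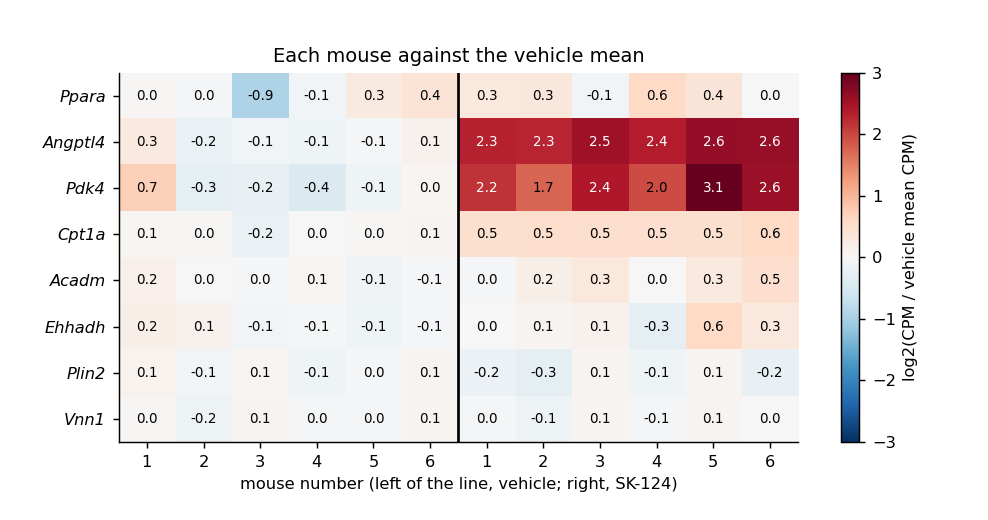
Log2 ratio of each mouse's CPM to the vehicle mean for the 8 genes, with vehicle-treated mice left of the line and SK-124-treated mice right of it. *Angptl4* and *Pdk4* are dark in all 6 SK-124-treated mice, *Cpt1a* is evenly raised, and *Plin2* and *Vnn1* stay near 0.

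Seen by mouse, the SK-124 group was even for *Cpt1a* and uneven for *Pdk4*. The log2 ratio to the vehicle mean ran from 0.47 to 0.59 for *Cpt1a*, from 2.28 to 2.64 for *Angptl4*, and from 1.75 to 3.12 for *Pdk4*. SK-124-treated mouse 5 was highest for *Pdk4*, *Angptl4* and *Ehhadh*, and also for *Cyp4a14*, but lowest in its group for *Cpt1a* at 419 CPM. The means of SK-124-treated mice 1 to 3 and 4 to 6 were 70.0 and 98.8 CPM for *Pdk4*, 168 and 190 CPM for *Angptl4*, and 428 and 432 CPM for *Cpt1a*.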

How the data were processed

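Whole-kidney RNA from 12 mice was sequenced on a BGISEQ500 platform. Per the labels, the submitters' processing notes name FastQC, STAR 2.7.2b, RSEM 1.3.0, DESeq2 and the mm10 build. The annotation release and the use of strand are not given in the sources used here. The authors deposited 1 table per mouse of RSEM expected counts and TPM per gene, with effective lengths and the posterior standard deviation of each count. Each of the 8 identifiers was found, version included, in GENCODE M21 (GRCm38), and that standard deviation was 0 for each. Expected counts were rounded, genes were kept with edgeR's filterByExpr, and SK-124 was compared with vehicle by edgeR's quasi-likelihood test (edgeR 4.0.16, R 4.3.3, TMM, all 12 mice, Benjamini-Hochberg over 14159 genes). TPM was used for levels between genes and, with limma 3.58.1, as an alternative. DESeq2 1.42.0 was another. Single-gene permutation tests went through all assignments of the mice with numpy 2.4.6, and ranks for Spearman's rho used scipy 1.17.1. The edgeR and DESeq2 fits were also run on simulated counts with far fewer changed genes than were called here. That simulation did not carry the composition differences of these libraries, and the limma fits on TPM were not simulated.

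The 8 genes, the role lists and the markers were chosen with earlier results of these data known. Named were the 8 genes, up to 3 higher and 3 lower called genes of each list with the largest change, and a fixed set of well-known pathway genes; other called genes were named after their values were seen. Nothing says whether the mice of a group were housed or injected separately, so p-values measure the spread between these samples. Replicate numbers did not pair the mice. The totals of 19244227 to 19771802 expected counts per mouse limit the precision for scarce genes. A planned comparison of the kinase protein sequences was not run, and results of a few listed genes are not reported here. Alternatives are given in the closing section.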

Additional observations from a re-analysis of the deposited data

Results flagged for a closer look

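In groups of 6 mice, single values that stood far from the rest of their group by Dixon's gap criterion were looked for in 110 gene-by-group sets. Of these, 9 stood apart, beside 5.5 that chance alone gives at 1 in 20.

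A pair of them concerned the 8 genes. *Pdk4* in vehicle-treated mouse 1 was at 26.1 CPM, above the next mouse at 16.4 CPM, and *Cpt1a* in vehicle-treated mouse 3 was at 261 CPM, below the next at 299 CPM. Vehicle-treated mouse 3 was also the lowest of its group for *Ppargc1a* (54.5 CPM) and *Rxra* (88.7 CPM) and the highest for *Pparg* (1.94 CPM). Its whole library stood apart. Chi-square per degree of freedom between 2 libraries was 20.8 to 26.9 for vehicle pairs with this mouse. It was 4.71 to 9.16 for the other vehicle pairs and 5.9 to 32.1 for SK-124 pairs. Without this mouse, 1863 genes were called higher and 2079 lower, against 1536 and 1917 with all mice (edgeR).

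SK-124-treated mouse 5 was the highest of its group for *Acot3* (9.57 CPM). The remaining values were *Ppard* in vehicle-treated mouse 5 (52.1 CPM), *Fasn* in vehicle-treated mouse 6 (56.6 CPM) and *Scd2* in SK-124-treated mouse 3 (33.4 CPM), each the lowest of its group. The cause of these single values was not tested.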

How the results depend on the processing

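The calls for *Angptl4*, *Pdk4* and *Cpt1a* held under all 24 alternatives, with log2 fold changes from 2.25 to 2.55, 1.94 to 2.64 and 0.36 to 0.53. *Acadm* was called by DESeq2 (0.23), and leaving out 1 mouse moved it between 0.16 and 0.27; its single-gene difference was 0.080 on log2(TPM + 1). *Ehhadh* was at -0.011 with limma on log2(TPM + 1) and on log2(TPM + 0.1), and in the single-gene check on log2(TPM + 1). *Vnn1* lay between -0.045 and 0.0091 with 1 mouse left out and at 0.0052 with SK-124-treated mice 4 to 6 only.

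The pathway counts of 35 higher and 9 lower moved to 19 and 14 with library totals only, where 5.49% of all genes were higher and 21.6% lower, and to 10 and 5 with limma on either TPM scale, where on log2(TPM + 1) 3.53% and 15% were. They were 23 and 6 with SK-124-treated mice 1 to 3 only, where 7.34% of all genes were higher and 8.5% lower. With mice 4 to 6 only they were 34 and 5, where 8.06% and 8.67% were. With 1 mouse left out they ran from 27 to 39 and from 8 to 9, beside 9.25% to 13.1% and 11.4% to 14.6% of all genes. The PPAR direct repeat was in 1 member window with up to 2 mismatches. Estimates under 0 replaced small positive ones for *Pparg* (-0.0084 with library totals only), *Rxra* (-0.0019 likewise), *Cpt1b* (-0.032 likewise, -0.032 and -0.036 on the TPM scales) and *Lpl* (-0.0038 and -0.0040 on the TPM scales). With 1 mouse left out, *Pparg* ran from -0.019 to 0.24 and *Hilpda* from -0.24 to 0.086. *Hilpda* was at 0.067 with SK-124-treated mice 4 to 6 only. Of 37 other named genes with a call, 25 lost it under at least 1 alternative. The cause was not tested.

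Replicate numbers did not mark shared animals, and same-numbered mice correlated between -0.131 and 0.217 in their deviations. With the replicate number as a block, 3 of the 8 genes were higher and 0 lower, and the pathway counts were 35 and 8. The shares of all genes were 11.1% and 13.4% in that fit. Scarce genes such as *Pparg*, *Plin4* and *Thrsp*, at 1 to 3 CPM, had an SE of 0.19, 0.31 and 0.31 on the log2 scale. Wide intervals were not limited to scarce genes, with an SE of 0.36 for *Cyp4a14* and 0.22 for *Pdk4* (all edgeR).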
